A study of Mus musculus with 89 samples.

Results

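Wells of sorted single cells from mouse jejunum in which hemoglobin or immunoglobulin transcripts made up at least 1% of all transcripts are described here. Transcripts were counted as unique molecular identifiers (UMIs), so that each RNA molecule captured in a well was counted once. A well was kept with 200 to 7000 UMIs, 150 to 1500 detected genes and at most 40% mitochondrial UMIs, which held for 5199 of 16850 wells (30.9%). A kept well was called hemoglobin rich when Hba-a1, Hba-a2, Hbb-bs and Hbb-bt together took at least 1% of its UMIs, and immunoglobulin rich when Igha, Jchain, Iglc1, Iglv1 and Ighg2b together did. In all 227 wells (4.37% of the kept wells) were chosen, of which 40 were hemoglobin rich and 187 immunoglobulin rich, and 0 were both. The other 4972 kept wells are called wells of neither class. The levels of these 9 genes chose the members and are given as a description, without a test.

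The study sorted single cells and small clumps of cells from the jejunum of C57BL/6 male mice on regular chow into plates of 384 wells. Single cells came from 4 mice on 44 plates, and the plates of 1 mouse are not separate animals. All plates carried the label of 3 months of age except for 3 plates of mouse 2, which carried 4 months, named no gate and held none of the members. The labels do not explain why mouse 2 carried both ages, and it was treated as 1 animal. None of the mice carried a labelled allele or received a labelled agent, so the plates differed in mouse and in sorting gate. In mouse 1 the gates were EpcamLow_Cd24high (2 plates), Epcam_Cd24low (1 plate) and none named (5 plates), and in mouse 2 CD24 (5 plates), Epcam (6 plates) and none named (5 plates). Mouse 3 had plates labelled CD45Epcam (3) and onlyEpcam (7), and mouse 4 had plates labelled CD54Epcam (3) and onlyEpcam (7). The labels do not say whether CD45 or CD54 was required to be present or absent. Plates held 109338 to 2348338 UMIs, and the median kept well held 2858.5, 1516, 1441.5 and 1630.5 UMIs in mice 1 to 4. The same 384 well barcodes were used on every plate by design, and no doublet caller was run.

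Red blood cells carry oxygen on hemoglobin, a tetramer of alpha and beta globin chains, and the precursors of red cells make heme, which begins with the enzyme Alas2 in that lineage. Plasma cells are the antibody secreting end stage of B cells. In the intestine most of them lie in the lamina propria below the epithelium and secrete dimeric IgA, which consists of Igha heavy chains and kappa or lambda light chains joined by the J chain (Jchain), and which the receptor Pigr carries across the epithelium into the lumen.

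The hemoglobin rich wells came from a few plates. Mouse 1 gave 20 and mouse 2 gave 20, whereas mice 3 and 4 gave 0 of 1536 and 0 of 1060 kept wells, which allows shares of up to 0.195% and 0.283%. In mouse 1, 14 of the 34 kept wells of the EpcamLow_Cd24high plates were hemoglobin rich (41.2%, exact binomial 95% interval 24.6 to 59.3%), all of them on plate 2 (58.3% of its 24 kept wells), while plate 3 of the same gate gave 0 of 10. The Epcam_Cd24low plate gave 6 of 19 kept wells (31.6%, 12.6 to 56.6%). The 5 mouse 1 plates without a named gate gave 0 of 757, which allows up to 0.396%. In mouse 2 all 20 were on CD24 plates (1.85% of 1080 kept wells, 1.13 to 2.85%), with 6, 0, 8, 1 and 5 wells on plates 1 to 5, and the Epcam plates gave 0 of 573. Intervals and limits cover counting error only.

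Immunoglobulin rich wells lay in mice 2, 3 and 4. Mouse 1 gave 0 of 810 kept wells (up to 0.370%), mouse 2 gave 14 (0.781%, 0.428 to 1.31%), mouse 3 gave 133 (8.66%, 7.30 to 10.2%) and mouse 4 gave 40 (3.77%, 2.71 to 5.10%). In mouse 2, 13 of the 14 came from CD24 plates and 1 from Epcam plate 8. In mouse 3 the onlyEpcam plates held 120 of 1260 kept wells (9.52%) and the CD45Epcam plates 13 of 276 (4.71%). In mouse 4 the onlyEpcam plates held 30 of 802 (3.74%) and the CD54Epcam plates 10 of 258 (3.88%).

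**Figure D1:**
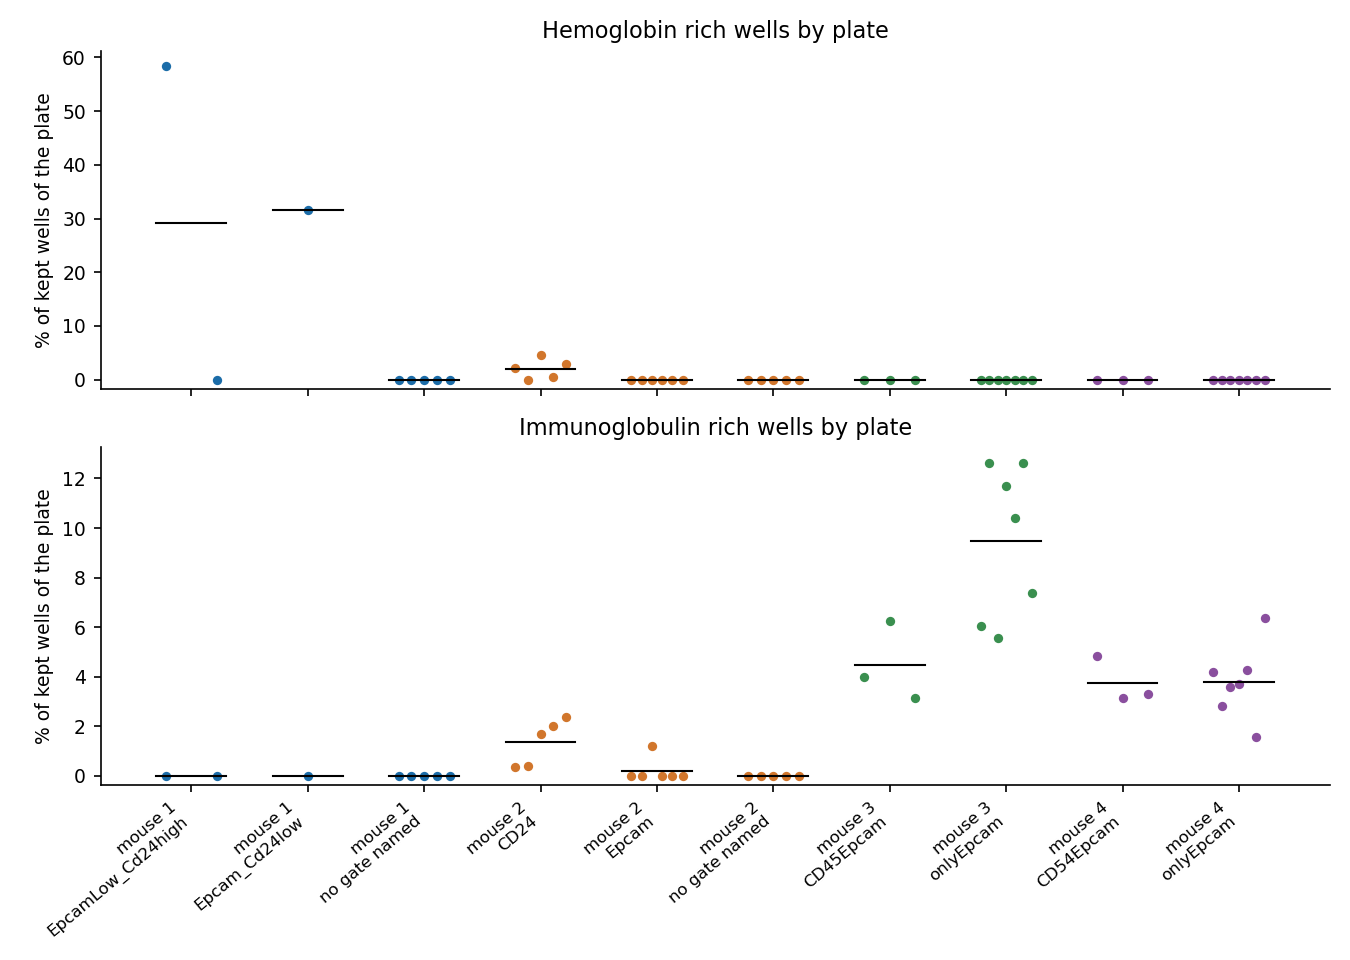
Share of kept wells that were hemoglobin rich (upper axis) or immunoglobulin rich (lower axis), in percent, for each plate (points, coloured by mouse) grouped by mouse and gate, with the mean over plates as a line. Hemoglobin rich wells occurred on 2 plates of mouse 1 and 4 CD24 plates of mouse 2, and immunoglobulin rich wells on every plate of mice 3 and 4.

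The shares were compared between gates over plates with exact two-sided permutation tests, 4 in all, with Benjamini-Hochberg adjustment. The p-values measure the spread between plates, not between animals. On the CD24 plates of mouse 2, 2.03% ± 1.83 (SD, n = 5 plates) of kept wells were hemoglobin rich, against 0 on each of the 6 Epcam plates (difference 2.03 percentage points, exact permutation p = 0.0152, the smallest these values allow, adjusted p = 0.0606). Immunoglobulin rich wells took 1.37% ± 0.942 (SD, n = 5) of the CD24 plates and 0.201% ± 0.492 (SD, n = 6) of the Epcam plates (difference 1.17, exact permutation p = 0.0411, adjusted p = 0.0675). Neither difference passed 0.05 after adjustment over the 4 comparisons, where 0.0606 was the smallest adjusted p that the hemoglobin test could reach on its own. One of the 4 had 0 on every plate. Adjusted over the other 3, a choice made after the values were seen, the exact permutation p-values were 0.0455 (hemoglobin) and 0.0506 (immunoglobulin). With every kept well thinned to 200 UMIs, where 1% is 2 UMIs, the differences were 2.82 (adjusted p = 0.00866) and 2.34 (adjusted p = 0.0130) by the same exact permutation test. With wells of at least 1000 UMIs the immunoglobulin difference was 2.15 (exact permutation, adjusted p = 0.00866). Single plates also moved the call. For immunoglobulin the exact permutation test gave an adjusted p of 0.0303 without CD24 plate 1, without CD24 plate 2 or without Epcam plate 8, and for hemoglobin 0.0190 without CD24 plate 2.

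Over mice 3 and 4 the plates labelled CD45Epcam or CD54Epcam held on average 4.11% immunoglobulin rich wells and the onlyEpcam plates 6.64% (difference -2.53 percentage points, exact permutation within mouse, p = 0.0506, adjusted p = 0.0675). Within mouse 3 the means were 4.46% ± 1.61 (SD, n = 3) and 9.48% ± 3.09 (SD, n = 7), with CD45Epcam plates at 3.13 to 6.25% and onlyEpcam plates at 5.56 to 12.6% (exact permutation p = 0.0583). Within mouse 4 the means were 3.76% ± 0.953 (SD, n = 3) and 3.79% ± 1.46 (SD, n = 7), a difference of -0.0326 (exact permutation p = 0.975). The gate difference of mouse 3 minus that of mouse 4 was -4.99 (exact permutation p = 0.0542). Kept wells of the CD45Epcam plates of mouse 3 were deeper, with plate medians of 3219.5 to 4614 UMIs against 842 to 1501 on its onlyEpcam plates. After thinning to 200 UMIs the difference over both mice was -5.31 (exact permutation, adjusted p = 0.0370). The share of hemoglobin rich wells was 0 on all of these plates and gave nothing to compare.

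The share that the rule genes took varied widely in both classes. Hemoglobin took 1.08 to 88.3% of the UMIs of its wells (median 25.7%), with 25 wells at 10% or more and 15 between 1 and 10%. The 25 high wells held a median of 1792 UMIs and 238 genes, and the 15 low wells 522 UMIs, of which a median of 7 were hemoglobin. Immunoglobulin took 1.01 to 62.7% (median 22.1%), with 141 wells at 10% or more (median 3021 UMIs, 524 genes) and 46 below (median 607.5 UMIs, of which 9 from the rule genes). Wells just inside the hemoglobin limit stood at 1.08, 1.10 and 1.11% (4, 3 and 9 UMIs) and those just outside at 0.894, 0.872 and 0.824%. The nearest immunoglobulin wells stood at 1.01, 1.03 and 1.05% inside and at 0.985, 0.982 and 0.960% outside. A limit of 0.5% of UMIs in place of 1% would give 57 and 325 wells.

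**Figure D2:**
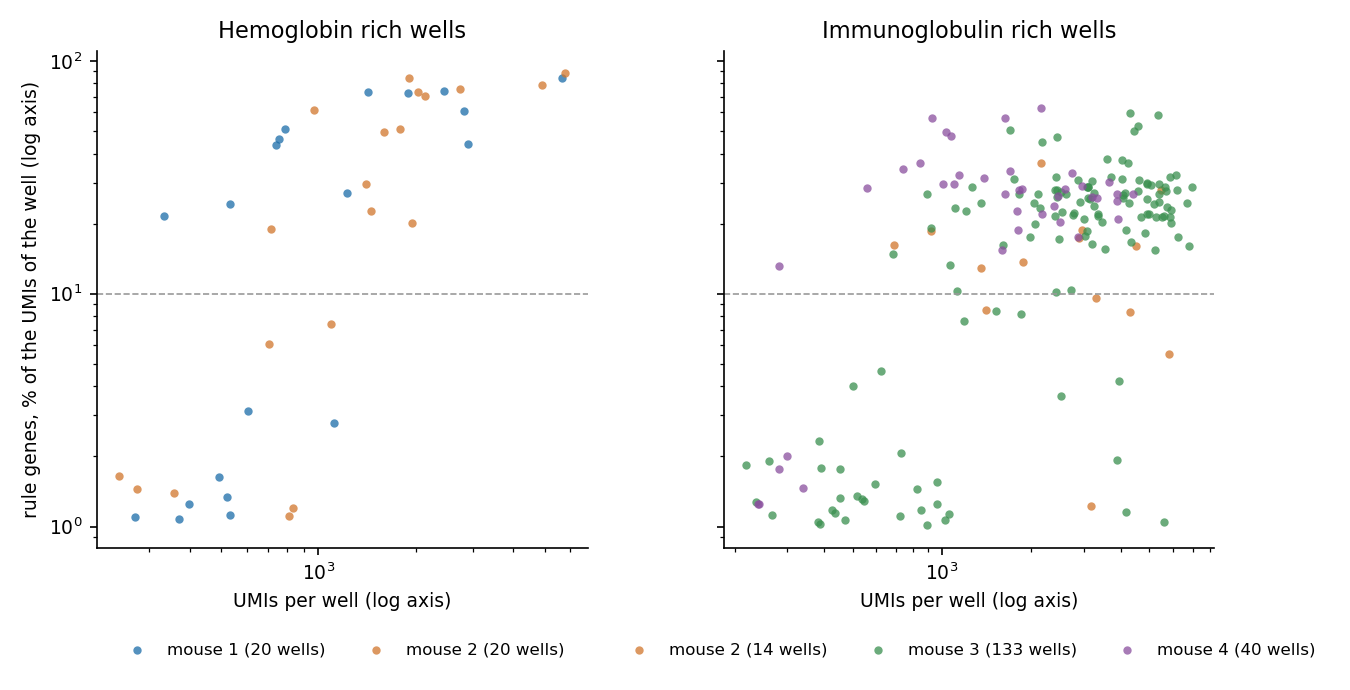
Share of UMIs from the 4 hemoglobin genes (left) or the 5 immunoglobulin genes (right) of each member well against its total UMIs, both on log axes, coloured by mouse, with a dashed line at 10%. Of the 40 hemoglobin rich wells 25 lie above the line, and of the 187 immunoglobulin rich wells 141 do.

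As a background level, the same genes were read in the wells of neither class. There the immunoglobulin genes took 0.00165, 0.0283, 0.136 and 0.0684% of UMIs in mice 1 to 4, and 77.7% of the wells of neither class in mouse 3 held at least 1 such UMI at a median depth of 1355 UMIs. Hemoglobin took 0.00873 and 0.0240% in mice 1 and 2. Wells of neither class lie below 1% by definition. Among wells with fewer than 200 UMIs, to which the rule was not applied, hemoglobin made up 9.51% of UMIs in mouse 1 and immunoglobulin 1.45% in mouse 3. The immunoglobulin rich wells between 1 and 10% held medians of 316, 9 and 5 rule UMIs in mice 2, 3 and 4, and the hemoglobin rich ones 6.5 and 9 in mice 1 and 2. How much of this was free RNA was not tested. Member wells had lower mitochondrial shares, with medians of 4.89% (hemoglobin rich) and 4.38% (immunoglobulin rich) against 19.1% in wells of neither class. In mice 1 and 2 the hemoglobin medians were 5.24 and 4.13% against 32.6 and 12.3%. In mice 2, 3 and 4 the immunoglobulin medians were 5.01, 4.54 and 4.12% against 12.3, 14.8 and 25.8%. Immunoglobulin rich wells between 1 and 10% reached 36.1%. The rule genes count in these totals. In mouse 1 only 23 of the 790 wells of neither class came from plates that held a hemoglobin rich well.

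Among the hemoglobin genes, both chains were found together. Hba-a1 (chromosome 11, 32283511 to 32284465, GRCm38) gave 10429 UMIs over the 40 wells, Hba-a2 (11, 32296489 to 32297298) 8901, Hbb-bs (7, 103826534 to 103828096) 8839 and Hbb-bt (7, 103812524 to 103813996) 4860. The alpha chain pair and the beta chain pair are near copies, so the split within each pair is uncertain. Summed by chain, alpha took 58.5% and beta 41.5% of hemoglobin UMIs. All 25 high wells held both chains, with beta at 21.4 to 66.8% (median 40.3%), and 14 of the 15 low wells did.

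Among the immunoglobulin genes, the heavy chain of IgA dominated. Igha (12, 113254830 to 113260236) took 86502 UMIs, 16.9% of all UMIs of the 187 wells, and was detected in 186 of them. Jchain (5, 88519809 to 88527891) took 21651 UMIs (4.23%) in 174 wells, Iglc1 (16, 19061618 to 19062071) 10593, Ighg2b (12, 113302965 to 113307933) 2804 and Iglv1 (16, 19085017 to 19085500) 1084. Per mouse, Igha took 6.81, 17.2 and 20.8% of the UMIs of the immunoglobulin rich wells in mice 2, 3 and 4, and Ighg2b, the heavy chain of IgG2b, took 5.55, 0.133 and 0.0148%. The kappa constant gene Igkc was not among the genes counted in the data used here, so the rule could not use it. Values are UMI counts of transcript 3′ ends.

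The heavy chains were sorted by well. The rule used Igha and Ighg2b and no other heavy chain gene, so the choice of wells bears on these numbers, and a well of neither class held 8.73% Ighm UMIs. Among the 141 wells at 10% or more, 137 had at least 90% of their heavy chain constant UMIs from Igha and 3 from Ighg2b, and 1 well held fewer than 20 such UMIs. The 3 Ighg2b wells held 1359, 649 and 446 Ighg2b UMIs beside 4, 2 and 3 Igha UMIs, and another well with 255 Ighg2b UMIs stood at 9.57%. Of these 4 wells 3 came from CD24 plates of mouse 2. The well with few heavy chain UMIs held 1193 Gm43291 and 256 Jchain UMIs but only 6 of Igha. A single well of mouse 3, at 8.22%, carried Ighd (195 UMIs) and Ighm (116 UMIs), the heavy chains of IgD and IgM, with 143 Jchain, 591 Gm43291 and 5 Igha UMIs. These last 2 wells were picked out after their values were seen.

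A second split ran along Gm43291, a gene that no reference table used here gives a position or a product, and that the rule did not use. Of the 141 wells, 124 (87.9%) had at least 90% of the sum of Gm43291 and lambda chain UMIs (genes named Iglc or Iglv) from Gm43291, 14 (9.93%) had at least 90% from lambda genes, and 3 lay between. The rule used the lambda genes Iglc1 and Iglv1 but not Gm43291, so the choice of wells bears on this split. The 14 lambda wells held the highest rule shares, 37.4 to 62.7%, and the highest Gm43291 well stood at 36.4%. In the 14 lambda wells, lambda genes gave 239 to 1691 UMIs (median 619.5) and Gm43291 gave 0 to 18 (median 3.5). In the 124 other wells Gm43291 gave 62 to 3061 UMIs (median 730) and lambda 0 to 45 (median 9). Kappa variable genes (Igkv) had UMIs in 122 of the 124 Gm43291 wells (median 8 UMIs, up to 52) and in 3 of the 14 lambda wells (0 to 2 UMIs). The lambda wells came from mice 3 (9 wells) and 4 (5 wells). Lambda genes are near copies of each other and were counted together.

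**Figure D3:**
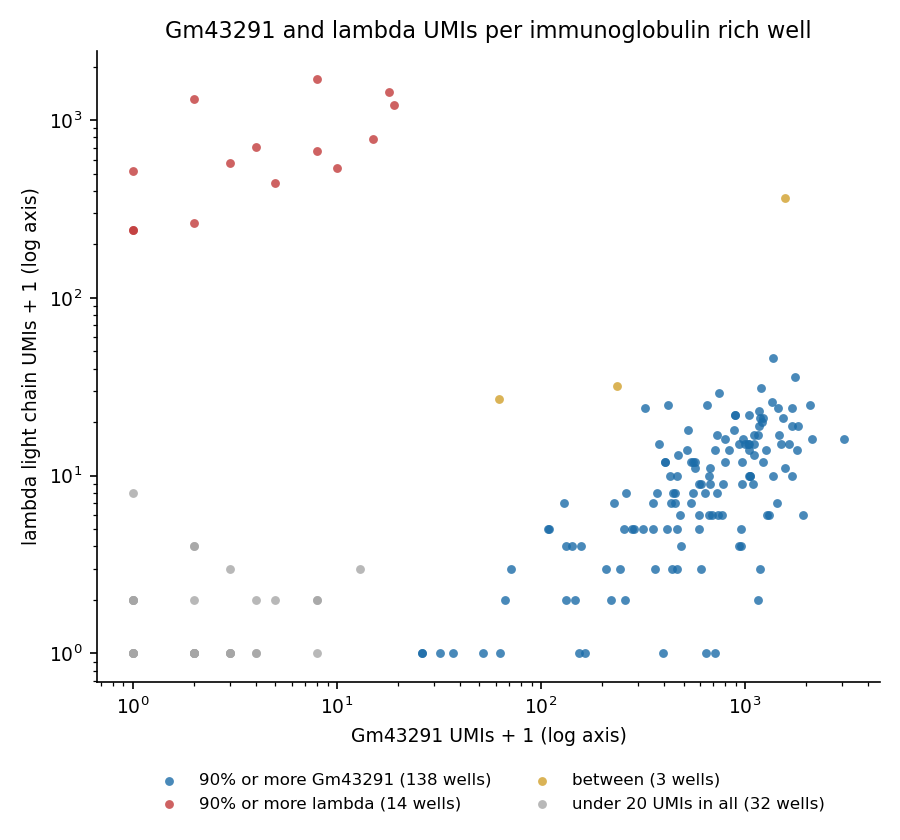
UMIs of the lambda light chain genes against UMIs of Gm43291, both plus 1 on log axes, for each of the 187 immunoglobulin rich wells, coloured by which of them gave at least 90% of their sum. The 14 lambda wells sit at 0 to 18 Gm43291 UMIs, and 138 wells lie on the Gm43291 side with at most 45 lambda UMIs.

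Variable genes differed between wells. Heavy chain variable genes (Ighv, 88 in the table) had at least 5 UMIs in 46 of the 141 wells, and in 17 of these a single gene gave at least 80% of them. Kappa variable genes (93 in the table) had at least 5 UMIs in 88 wells, and in 45 of these a single gene gave at least 80%. The most abundant variable gene took 21 different names for Ighv and 35 for Igkv. Variable genes share sequence, so reads can be split among relatives.

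Which other genes the members expressed was tested on UMIs summed per mouse and class, with mice as replicates. The 4 hemoglobin genes, Jchain and all genes named Igh, Igk or Igl (208 genes) were left out of the sums and of the test. For the immunoglobulin rich wells, mice 2, 3 and 4 entered (34716, 298662 and 52706 UMIs against 2241387 to 3364736 in wells of neither class), and values are given as CPM, the UMIs of a gene scaled to a common total of these sums. Of 7480 genes tested by edgeR's quasi-likelihood test, 995 passed an adjusted p of 0.05, which is 13.3% of them. Of these, 273 (3.65%) were higher and 722 (9.65%) lower in the members. The lower side moved with the treatment of the data. With wells of neither class taken only from plates that held a member, 104 were higher and 36 lower, and without mouse 3, 42 were higher and 50 lower. Without mouse 4 the numbers were 132 and 127. In counts simulated from these sums, 94% of genes raised by 3 on the log2 scale and 14% of those lowered by 3 were recovered.

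Genes of plasma cells rose in the immunoglobulin rich wells. Of the 22 listed plasma cell genes 21 were higher and 0 lower, with a median log2 change of 4.48 against -0.41 over all genes tested. Mzb1, a chaperone of antibody assembly, stood at 1671, 633 and 1062 CPM in the members of mice 2, 3 and 4 and at 8.02, 4.63 and 1.78 CPM in wells of neither class (log2 change 7.48, edgeR adjusted p = 9.73e-15). The mean difference of log2(CPM + 1) over the 3 mice was 7.64 ± 0.51 (SE), and the lowest member value lay above the highest of the other wells. Over all genes tested, the 3 values of each class did not overlap for 37.9%, in one direction or the other. Derl3, which acts in the disposal of misfolded secretory proteins, stood at 202, 211 and 190 CPM against 0.297, 0.662 and 0 CPM (log2 change 8.87, edgeR adjusted p = 1.55e-17). Its 3 UMIs in wells of neither class put the ratio of pooled counts at 596 with a counting interval of 197 to 2950. Tnfrsf17, the receptor BCMA that sustains plasma cells, gave 34 UMIs in members and 1 in the other wells.

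Transcription factors and surface proteins of that stage followed. Xbp1, which drives the secretory program, stood at 893, 1289 and 2049 CPM against 69.8, 62.9 and 45.1 CPM (log2 change 4.47, edgeR adjusted p = 4.18e-08). Irf4 (log2 change 5.10), the B cell co-activator Pou2af1 (6.55) and the elongation factor Eaf2 (6.46) rose as well, and Prdm1 rose by 1.62 (edgeR adjusted p = 0.0398). Sdc1, the surface proteoglycan CD138, stood at 288, 214 and 512 CPM against 6.54, 9.27 and 10.3 CPM. The exception in the list was Cd38, at 173, 6.70 and 0 CPM in the members and 46.4, 43.4 and 29.4 CPM in the other wells (log2 change -0.63, edgeR adjusted p = 0.608). Derl3, Tnfrsf17, Mzb1, Pou2af1, Eaf2 and Irf4 passed the test under each alternative in which they were tested. Of the whole list, 20 of 22 genes were called higher and 1 lower without mouse 2, and the numbers called higher were 15 of 21 without mouse 3 and 20 of 22 without mouse 4.

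A few genes of B cells were also higher. Of the 13 listed B cell genes 3 passed the filter on low counts, which a gene near 0 in other wells can pass only through the members, and these 3 were higher. Without the filter 11 were tested, of which 3 were higher, 0 lower and 7 above 0 (median log2 change 1.95). Cd79a, a signalling chain of the B cell receptor, stood at 1210, 198 and 247 CPM against 9.51, 0.993 and 0 CPM (log2 change 6.68, edgeR adjusted p = 1.62e-12). Cd79b rose by 4.03 and Ly6d by 4.73 on the log2 scale. Vpreb3 (6.91) and Cmah, an enzyme of sialic acid synthesis (6.62), were among the 10 largest rises.

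Genes for homing and IgA transport divided. Of the 11 listed genes 6 passed the filter on low counts. Ccr10, near 0 in other wells, could pass it only through the members. Ccr10, a homing receptor of IgA plasma cells, stood at 144, 70.3 and 247 CPM in the members against 0, 1.32 and 0 CPM (log2 change 7.77, edgeR adjusted p = 5.05e-15). Itga4, an integrin chain used in gut homing, rose by 2.91. Pigr, the IgA carrier of the epithelium, stood at 144, 345 and 209 CPM against 854, 1458 and 1947 CPM (log2 change -2.50, edgeR adjusted p = 0.00278), and Ccl25, an epithelial chemokine, fell by 2.03 on the log2 scale. Neither Pigr nor Ccl25 passed without mouse 4 or with wells of neither class only from plates that held a member, and Ccl25 did not without mouse 3. The other 2 tested genes of this list did not pass.

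Gm43291 had the largest rise on the log2 scale, 9.05 (edgeR adjusted p = 8.76e-08). It stood at 158544, 286873 and 339202 CPM in the members against 297, 797 and 305 CPM in the other wells, and took 21.3% of all member UMIs. Whether it is a transcript of the same antibody genes as the rule cannot be told from the tables used here, so its change is no independent evidence about these wells. With Gm43291 and Gm42418 left out, an alternative chosen after the values were seen, 305 genes were higher and 662 lower.

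Epithelial genes were lower. Of the 28 listed enterocyte genes 27 were lower and 0 higher (median log2 change -2.68). Apoa4, a lipid transport protein, stood at 28.8, 338 and 417 CPM in the members against 2547, 1974 and 5317 CPM, and Krt8, an epithelial keratin, at 57.6, 137 and 114 CPM against 1140, 663 and 1169 CPM. Epcam, the surface protein used in the sort, stood at 230, 70.3 and 94.9 CPM against 701, 483 and 1009 CPM (log2 change -2.90, edgeR adjusted p = 2.54e-04). All 8 tested goblet genes were lower, with a median of -4.64, or -4.28 with the gene at 0 set to its bound. Muc2, the gel forming mucin, stood at 0, 10.0 and 19 CPM against 629, 560 and 47.7 CPM. Fewer passed against wells of neither class from plates that held a member (5 of 28 enterocyte and 1 of 8 goblet genes), without mouse 3 (15 of 28 and 2 of 8) and, for enterocyte genes, without mouse 4 (8 of 28, with 8 of 9 goblet genes). The median log2 changes in these settings were -2.62, -4.54 and -2.35 for enterocyte genes and -3.92, -6.34 and -4.65 for goblet genes.

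The 10 called genes with the most negative fitted log2 change had 0 UMIs in all members, so their fitted values are no bound and their rank among the falls is not established. In wells of neither class of mice 2, 3 and 4 together, 2010109I03Rik had 1698 UMIs, Clca4c-ps 1022, Lrmp 768, of which 639 in mouse 2, Guca2a, the hormone guanylin, 754 and Gm14085 713. The other 5 (2010107G12Rik, Gimd1, Cyp2j6, Myo1d and Frk) had 348 to 526. Of these 10 genes 9 did not pass without mouse 3, and 5 of the 8 tested did not when wells of neither class were taken only from plates that held a member.

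T lymphocyte genes were lower in part in the summed members. Of 21 tested T lymphocyte genes 12 were lower and 0 higher (median log2 change -1.81). Gzmb, a granule protease of intraepithelial lymphocytes, stood at 86.4, 194 and 152 CPM in the members against 1175, 684 and 424 CPM (log2 change -2.22, edgeR adjusted p = 0.00512), with a mean difference of log2(CPM + 1) of -2.35 ± 0.71 (SE, 3 mice). Low as well was Cd3d, a chain of the T cell receptor complex, at 28.8, 13.4 and 19 CPM against 135, 77.1 and 52.6 CPM. Neither passed without mouse 3, without mouse 4, or with wells of neither class only from plates that held a member, where 1 of 20, 1 of 23 and 2 of 21 listed genes passed. The median log2 changes of the list were -2.73, -1.94 and -2.16 there. Of the remaining lists, 2 of 6 tested myeloid genes (Lyz2 and Tyrobp), 2 of 4 tuft genes (Alox5ap and Sh2d6), 3 of 7 enteroendocrine genes (Chga, Cck and Chgb) and both tested platelet genes (Gp1bb and Nrgn) were lower, and none was higher. Of these 9 genes, Alox5ap, Cck, Chga, Chgb and Nrgn did not pass with DESeq2, which gave Sh2d6 no p-value. Without mouse 3, and with wells of neither class only from plates that held a member, edgeR called 0 genes of these 4 lists, with 5 and 9 at an unadjusted p below 0.05. Among 7 tested Paneth, 6 stem or dividing, 5 red cell and 1 stroma or vessel genes 0 passed in either direction by edgeR or DESeq2, with 0, 1, 2 and 0 at an unadjusted p below 0.05 by edgeR. Of 12 immediate early genes Fos (1.56) and Fosb (2.19) were higher and Atf3, with 0 UMIs in members, was lower, and neither Fos nor Fosb passed with DESeq2.

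**Figure D4:**
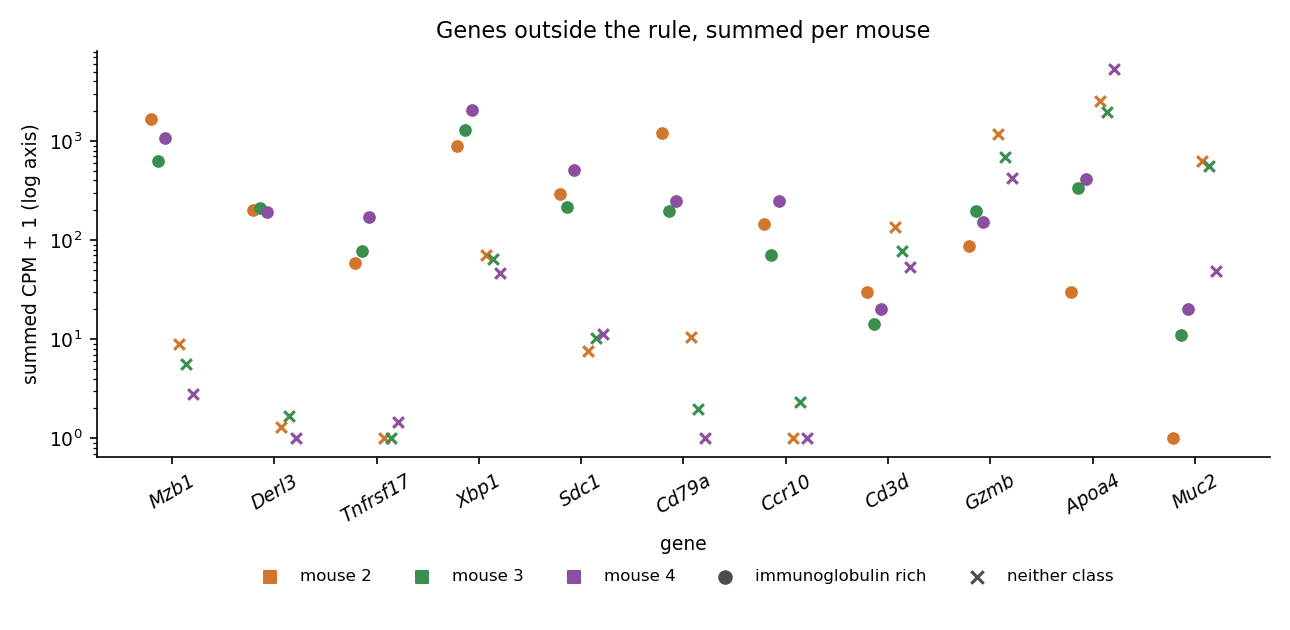
Summed CPM plus 1 on a log axis of 11 genes outside the rule, in immunoglobulin rich wells (circles) and wells of neither class (crosses) of mice 2, 3 and 4. For Mzb1, Derl3, Tnfrsf17, Xbp1, Sdc1, Cd79a and Ccr10 all circles lie above all crosses, and for Cd3d, Gzmb, Apoa4 and Muc2 all circles lie below all crosses.

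The wells at 10% or more and those between 1 and 10% differed in what else they held. In the 141 high wells plasma cell genes took 1.02% of the UMIs outside the left-out genes, T lymphocyte genes 0.0804% and enterocyte genes 0.204%. In the 46 low wells plasma cell genes took 0.320%, T lymphocyte genes 1.51% and enterocyte genes 1.55%. Wells of neither class stood at 0.0590, 0.766 and 2.48%. Counted by well, 66 of the 141 high wells and 3 of the 46 low wells held at least 1% plasma cell UMIs, whereas at least 1% T lymphocyte UMIs were found in 2 and 28 of them. Of these 28 low wells 23 came from onlyEpcam plates of mouse 3 and 4 from onlyEpcam plates of mouse 4. The low wells differed by gate. The 5 on CD24 plates of mouse 2 held 0.779% plasma cell, 0.119% T lymphocyte and 0.149% enterocyte UMIs, and gave 131 of the 184 plasma cell UMIs of all low wells. The 6 on CD45Epcam plates held 0.0642, 0 and 3.73%, and the 30 on onlyEpcam plates of mouse 3 held 0.199, 4.05 and 0.534%.

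**Figure D5:**
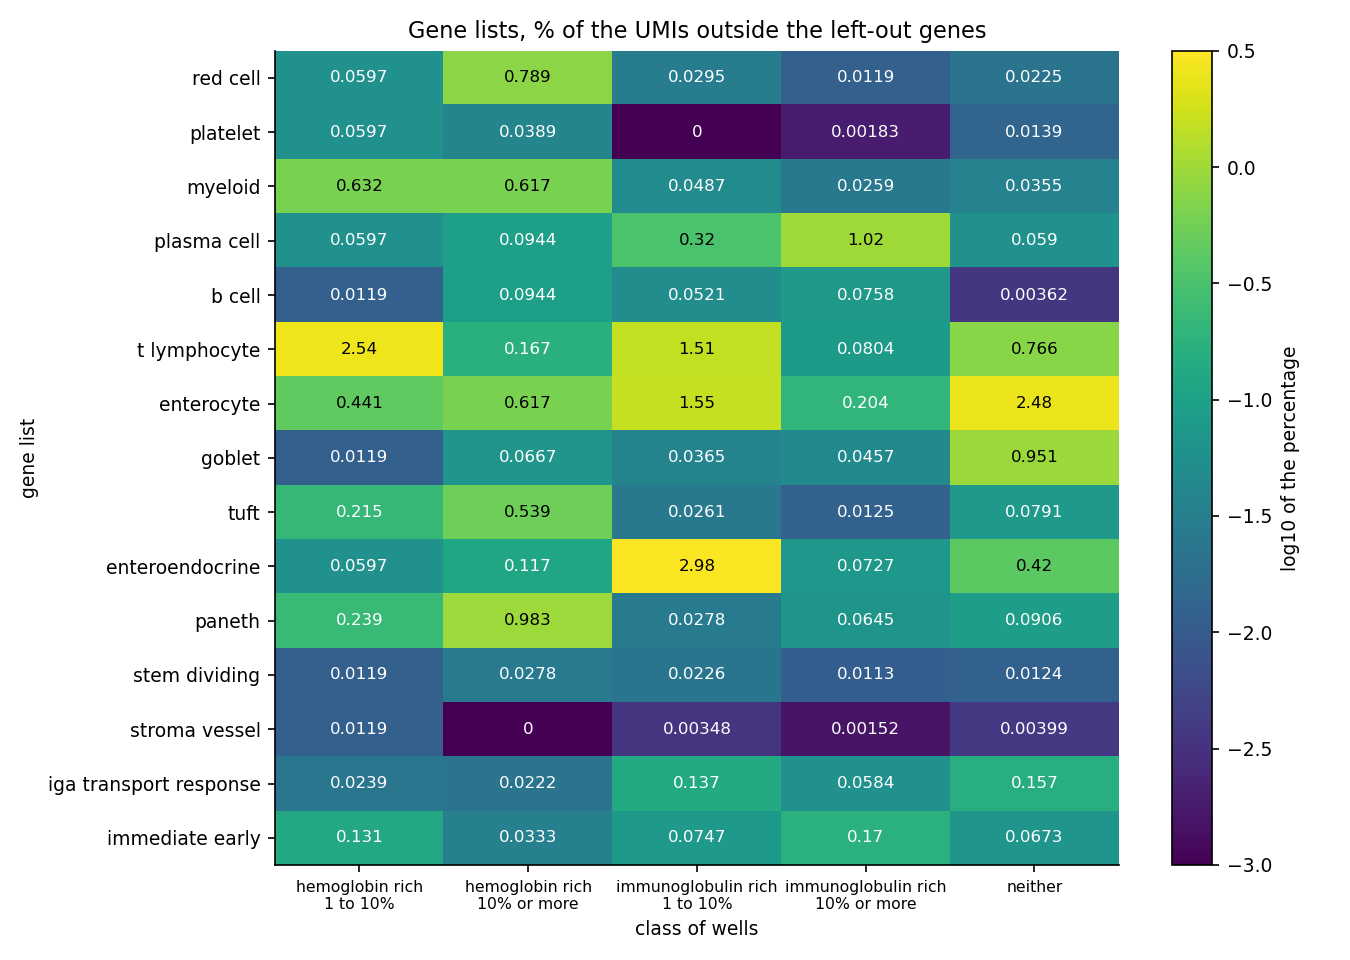
Share of the UMIs outside the 208 left-out genes that each marker list took in the pooled wells of 5 classes, in percent (numbers) and as a colour on a log10 scale from -3 to 0.5. Plasma cell genes are highest in the immunoglobulin rich wells at 10% or more (1.02%), red cell genes in the hemoglobin rich wells at 10% or more (0.789%), and T lymphocyte genes are above 1% in both groups between 1 and 10%.

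The test of the hemoglobin rich wells rested on few UMIs. The members of mouse 1 summed to 12106 UMIs and those of mouse 2 to 14277, and only these 2 mice entered the test. Of 6051 genes tested by edgeR, 9 passed an adjusted p of 0.05 (0.149%), 3 higher (0.0496%) and 6 lower (0.0992%), with 893 at an unadjusted p below 0.05. DESeq2 called 6 higher and 92 lower, and with mouse as a block 1 gene, higher, passed. With DESeq2's size factors in edgeR 1 was higher and 0 lower, and without scaling factors 2 and 1. In counts simulated from these sums, 0% of genes raised or lowered by 3 on the log2 scale were recovered. The median log2 change over all genes was -1.13, and without scaling factors, an alternative chosen after the values were seen, it was 0.80.

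Alas2, the enzyme that starts heme synthesis in red cell precursors (X, 150547375 to 150570638), had the largest rise. It gave 11 and 46 UMIs in the members of mice 1 and 2 (909 and 3222 CPM) and 0 and 2 UMIs in the wells of neither class (log2 change 10.58, edgeR adjusted p = 0.00605). The ratio of pooled counts was 6383 with a counting interval of 1688 to 53977. All 57 Alas2 UMIs lay in wells at 10% or more, where 12 wells held at least 1. Alas2 kept its direction in all alternatives, with adjusted p from 3.25e-07 to 0.265, and was past 0.05 in all of them except with wells of at least 1000 UMIs only (0.107) and with wells of neither class only from plates that held a member (0.265). Fam220a (log2 change 5.08, 7 UMIs in members) and Lst1, a leukocyte transcript (4.93, 10 UMIs in members), were the other genes called higher, and neither passed with mouse as a block (edgeR adjusted p = 0.805 and 0.732).

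Other genes of red cells were sparse. Of the 8 listed red cell genes that passed the filter on low counts 1 was higher and 0 lower. Genes near 0 in other wells could pass it only through the members, and without the filter 2 of 16 were higher, 0 lower and 10 above 0 (median log2 change 1.31). Bpgm, the enzyme that makes the hemoglobin ligand bisphosphoglycerate, stood at 413 and 560 CPM against 18.08 and 30.02 CPM (log2 change 2.31, edgeR adjusted p = 0.366). Mkrn1 had 27 UMIs, Bnip3l, which clears mitochondria in maturing red cells, had 17, and the mitochondrial iron importer Slc25a37 had 8. The anion exchanger Slc4a1 had 1 UMI in members and 1 in the wells of neither class. The membrane and skeleton genes Gypc, Epb42, Ank1, Sptb, Rhd and Tspan33 and the transcription factor Klf1 were at 0 UMIs in all 40 wells. Red cell genes took 0.789% of the UMIs outside the left-out genes in the 25 high wells, 0.0597% in the 15 low wells and 0.0225% in wells of neither class.

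Genes of other cells were present in the same wells. A kept well needed at least 150 genes, so wells with few genes beside hemoglobin could not be members. Of 139 wells with at least 200 UMIs and at least 10% hemoglobin, 114 were dropped, 113 of them with fewer than 150 genes. The shares below hold for the kept wells only. In mouse 1 myeloid genes took 0.768%, T lymphocyte genes 0.743%, enterocyte genes 0.0165% and Paneth genes 0% of the UMIs outside the left-out genes. In mouse 2 Paneth genes took 1.38%, T lymphocyte genes 1.07%, enterocyte genes 1.02%, tuft genes 0.756% and myeloid genes 0.497%. Wells of neither class held 0.0135% myeloid, 0.00436% T lymphocyte, 2.76% enterocyte and 0.00645% Paneth UMIs in mouse 1. In mouse 2 they held 0.252% Paneth, 1.29% T lymphocyte, 1.94% enterocyte, 0.212% tuft and 0.0547% myeloid UMIs, so that T lymphocyte and enterocyte genes took a smaller share of the members there. Of the 20 member wells of mouse 1, 11 held at least 1% myeloid UMIs, 2 at least 1% T lymphocyte UMIs (median well 0.102%) and 0 at least 1% Paneth or enterocyte UMIs. Of the 20 of mouse 2, 11 held at least 1% Paneth, 5 myeloid, 5 enterocyte, 5 T lymphocyte and 4 red cell UMIs. The T lymphocyte genes lay mostly in the wells between 1 and 10%, where they took 2.54% against 0.167% in the high wells.

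Myeloid genes had higher values in the hemoglobin rich wells without passing the test. Of the 15 listed, 10 passed the filter on low counts, several of them through the members, and without the filter 13 of 15 had a log2 change above 0 (median 2.17). Among the 10, by edgeR 0 passed, with 6 at an unadjusted p below 0.05 (median log2 change 2.94), and by DESeq2 2 passed. With wells of neither class only from plates that held a member, edgeR tested 7, of which 6 had a log2 change above 0 (median 1.73). None of these 7 was at an unadjusted p below 0.05. Csf1r, the growth factor receptor of macrophages, stood at 991 and 560 CPM in the members against 5.90 and 7.13 CPM, and C1qb, a complement subunit, at 826 and 700 CPM against 8.26 and 6.54 CPM (edgeR adjusted p = 0.222 and 0.261). Apoe, which macrophages also make, stood at 3717 and 3152 CPM against 30.3 and 35.4 CPM (edgeR adjusted p = 0.331). For each of these genes both member values lay above both other values, as held for 50% of all genes tested in one direction or the other. The neutrophil genes S100a8 and S100a9 had 1 and 4 UMIs in the members, and Itgam and Csf3r had 0.

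A few epithelial genes were lower in hemoglobin rich wells. Of 27 tested enterocyte genes 2 were lower and 0 higher (DESeq2 16 lower), and 10 were at 0 UMIs in the members. Apoa1 stood at 0 and 210 CPM against 7164 and 3112 CPM (log2 change -7.88, edgeR adjusted p = 0.0145) and Apoa4 at 82.6 and 140 CPM against 6604 and 2547 CPM. Of 8 goblet genes Zg16 and Tff3 were lower, with 1 UMI each in the members. With mouse as a block none of these 4 genes passed (edgeR adjusted p = 0.670), nor did the 2 mitochondrial genes that follow (0.914). The 12S and 16S mitochondrial rRNAs mt-Rnr1 and mt-Rnr2 were lower by 3.82 and 3.54. Without scaling factors their log2 changes were -1.44 and -1.18 and did not pass (edgeR adjusted p = 0.645), and with the wells of neither class only from plates that held a member their log2 changes were 0.037 and 0.23. In that setting 3 enterocyte genes could be tested, with log2 changes above 0 (median 1.36) and 0 called. It left 23 of the 790 wells of neither class in mouse 1. By edgeR 0 genes of the other lists passed in either direction, among 19 T lymphocyte, 11 plasma cell, 10 Paneth, 10 tuft, 10 immediate early, 8 enteroendocrine, 4 B cell, 4 IgA transport, 4 stem or dividing, 2 platelet and 1 stroma or vessel genes. At an unadjusted p below 0.05 these held 7 enteroendocrine, 3 immediate early, 2 plasma cell, 2 IgA transport and 1 B cell gene, and DESeq2 called 1 enteroendocrine and 1 IgA transport gene lower.

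Among the most abundant transcripts outside the rule, Gm43291 ranked first in immunoglobulin rich wells (mean 261540 against 467 CPM in wells of neither class). Gm42418, which overlaps ribosomal RNA sequence, took 263371 CPM in hemoglobin rich wells and 260568 CPM in wells of neither class of the same mice, and 214219 against 190795 CPM in the immunoglobulin comparison. Gm29216, Gm10925, Gm28661, Gm28437 and Gm13340 ranked among the first 10 in both classes. The first of them, Gm29216, stood at 9738 against 32661 CPM in hemoglobin rich wells and at 10261 against 30013 CPM in immunoglobulin rich wells, and Gm13340 at 4640 against 15317 and 5423 against 17136 CPM. Cd74, the invariant chain of antigen presentation (5953 against 1055 CPM), Tmsb4x (4370 against 1458 CPM), Actb (5479 against 4626 CPM) and Apoe (3435 against 32.8 CPM) completed the list in hemoglobin rich wells. In immunoglobulin rich wells B2m (2541 against 1350 CPM) was among them, with the hormones Gip and Sst through single wells. Of 1722 Gip UMIs in mouse 2, 89.1% came from 1 well, where Gip took 28.0% of the UMIs outside the left-out genes, and 98.7% of 837 Sst UMIs came from 1 well.

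The classes shared only mouse 2 with at least 5 wells each, so they were not tested against each other. In mouse 2, immunoglobulin rich wells held 1.07% plasma cell and 0.0144% red cell UMIs outside the left-out genes, and hemoglobin rich wells held 0.0700% and 0.756%. The 5 CD24 plates of mouse 2 gave 20 hemoglobin rich and 13 immunoglobulin rich wells and 0 that were both.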

How the data were processed

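Single cells from the jejunum of 4 mice were sorted into plates and sequenced by MARS-seq, with UMIs at transcript 3′ ends. The authors deposited raw UMI counts of 23379 genes in 16850 wells of 44 plates (39137313 UMIs). The submitters' processing notes name bcl2fastq 2.15.0.4 and GRCm38. The deposited counts were used without subtracting the level of empty wells.

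Members and gene lists were chosen with earlier results of these data known. Plates were grouped by mouse and gate from the labels, and 0 columns were left unused. UMIs outside 208 left-out genes were summed per mouse and class where a mouse had at least 5 members. The sums were tested with edgeR 4.0.16 (TMM, low count filter, quasi-likelihood test, R 4.3.3) with Benjamini-Hochberg adjustment over all genes tested, and with DESeq2 1.42.0 as an alternative. The edgeR step was tested on simulated data with 200 changed genes. Shares were compared over plates by exact permutation (scipy 1.17.1). Sums of a mouse come from the same animal. The deviations of the paired sums correlated by 0.212, 0.0710 and 0.0956 (immunoglobulin, mice 2, 3 and 4) and by 0.0231 (hemoglobin). Named were the rule genes, the 10 largest called changes in each direction shared by every mouse, the 10 most abundant other genes and members of the lists. Other list members were named after their values were seen. Positions are those of the GENCODE annotation of GRCm38.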

Additional observations from a re-analysis of the deposited data

Results flagged for a closer look

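Among the 6 Epcam plates of mouse 2, plate 8 alone held an immunoglobulin rich well, 1 of its 83 kept wells (1.20%), while the others gave 0. As these plates held 1 such well in all, 1 plate had to stand apart from the others.

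The limits on wells left out 114 wells with at least 200 UMIs and at least 10% hemoglobin, more than the 25 that were kept. Of these 113 had fewer than 150 genes, with medians of 46 genes, 1087 UMIs and 87.6% hemoglobin. Counting kept and dropped wells together, 54 came from the EpcamLow_Cd24high plates and 38 from the Epcam_Cd24low plate of mouse 1, 46 from the CD24 plates of mouse 2 and 1 from the onlyEpcam plates of mouse 4. The limits also left out 41 wells with at least 10% immunoglobulin beside the 141 that were kept, and 31 of them held more than 7000 UMIs.

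Wells with fewer than 200 UMIs, outside the comparisons, carried the same transcripts. In mouse 1 hemoglobin took 9.51% of their UMIs, and in mouse 3 immunoglobulin took 1.45%. Kept wells of neither class, which lie below 1% by definition, held 0.00873 and 0.136%.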

How the results depend on the processing

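Numbers of called genes are given as higher and lower. For the immunoglobulin rich wells (273 and 722) they were 225 and 1100 without a filter on low counts, 296 and 1246 (1542 in all) with a 5% limit and 299 and 1119 with a 10% limit. Leaving out each mouse gave 92 to 1102 calls (42 to 271 higher and 50 to 831 lower), the fewest without mouse 3. With wells of neither class only from plates that held a member 140 passed (104 and 36), 138 of them among the 919 of the 995 that were tested. With mouse as a replicate block 682 passed (165 and 517), of which 625 were among the 995. The median log2 change over all genes was -0.41, or -0.53 without scaling factors.

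For the hemoglobin rich wells (3 and 6, 9 in all) DESeq2 gave 98 (6 and 92), no filter 4 (4 and 0), and no scaling factors 3 (2 and 1). DESeq2's size factors in edgeR, the replicate block, rule genes kept in the library sizes and a 5% limit each gave 1 (1 and 0), in each case Alas2. With wells of at least 1000 UMIs edgeR called 0 genes (386 at an unadjusted p below 0.05), and with wells of neither class only from plates that held a member it called 0 of 316 (21 unadjusted), where mt-Rnr1 (0.037) and mt-Rnr2 (0.23) changed sign. DESeq2 was not run in these 2 settings. The cause of these differences was not tested. Leaving out a mouse left 1 sum against 1, so it gave no test.

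After thinning to 200 UMIs the differences in share were -5.31 percentage points (immunoglobulin, CD45Epcam or CD54Epcam), 2.34 (immunoglobulin, CD24) and 2.82 (hemoglobin, CD24), each past 0.05. With p adjusted over the 3 comparisons that hold a member, the hemoglobin difference of 2.03 passed (0.0455). Wells of at least 1000 UMIs gave 2.15 for immunoglobulin on CD24 plates, and pooling wells gave 1.85 for hemoglobin. Leaving out each plate gave 0.914 to 1.42 (immunoglobulin, CD24, adjusted p 0.0303 to 0.0825) and 1.42 to 2.54 (hemoglobin, CD24, adjusted p 0.0190 to 0.0675). The members numbered 25 (hemoglobin) at a 10% limit, 163 with no limit but 200 UMIs, and 325 (immunoglobulin) at a 0.5% limit. Over all settings, 753 values of named genes kept direction and call and 161 kept direction only.

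The 10% limit in the gene tests, adjustment over 3 comparisons, no scaling factors, and Gm43291 and Gm42418 left out were chosen after seeing the data. Alternatives with Igkc, and for a comparison between the classes, were not run. The hemoglobin comparison rested on 2 mice with 12106 and 14277 UMIs in members, and mice, gates and plates were not crossed.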

Other observations

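Wells of sorted clumps of cells, a separate table that entered no comparison, were read with the same rule after limits of at least 200 genes, more than 500 UMIs and at most 30% mitochondrial UMIs. Of 6282 such wells 0 were hemoglobin rich and 5 were immunoglobulin rich (0.0796%), 2 of 917 in mouse 2 (0.218%) and 3 of 1430 in mouse 3 (0.210%), all labelled 4n. Of these 5, 3 reached 10%. The mice of the clump plates are numbered in a separate series, and the labels do not say whether equal numbers mean the same animal. The limits differ from those of the single wells, so the shares were not compared.

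Gm43291, which the rule did not use, took up to 9.51% of the UMIs of a well of neither class.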
